A study of Canis lupus familiaris with 8 samples.

Results

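SLC6A6, SLC6A12 and AKR1B1 are 3 of the 32704 genes in the count table of MDCK I, an epithelial cell line from dog kidney. They were chosen by their identifiers, ENSCAFG00000004481, ENSCAFG00000015756 and ENSCAFG00000001290, and all 3 were measured in each of the 8 libraries. The libraries formed 4 groups of 2, with replicate 1 taken at passage 15 of the cells and replicate 2 at passage 17. Neg-siRNA, the control, was a siRNA against Slc22a6 and was used in normal growth medium (300 mOsm) and in medium brought to 500 mOsm with raffinose. Nfat5-1-siRNA and Nfat5-2-siRNA, different constructs against the transcription factor Nfat5, were used at 500 mOsm. Every group received 100 nM siRNA, and the hyperosmotic exposure lasted 24 h. No group was left without siRNA, and no Nfat5-siRNA library was made at 300 mOsm, so an effect of the Nfat5-siRNAs on these genes in normal medium was not measured.

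Cells of the renal medulla are surrounded by hyperosmotic fluid and balance it by accumulating organic osmolytes, small solutes that do not disturb proteins as salt does. SLC6A6 encodes the Na+- and Cl−-dependent taurine carrier and SLC6A12 the carrier of betaine and GABA, and both import their osmolyte from the extracellular fluid. AKR1B1 encodes aldose reductase, which makes the osmolyte sorbitol inside the cell from glucose. All 3 genes are textbook targets of Nfat5, which binds tonicity-responsive enhancers.

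The count table places SLC6A6 on the forward strand of chromosome 20 of CanFam 3.1, from 4531730 to 4616854, with 15 exons and 6525 exonic bases. The last exon accounts for 4524 of these bases. SLC6A12 lies on chromosome 27 from 42269697 to 42296182 on the reverse strand and has 16 exons with 3765 exonic bases. AKR1B1 is the shortest, with 1017 exonic bases in 11 exons on the forward strand of chromosome 14 from 2991938 to 3006606, and its last annotated exon has 43 bases. A transcript of AKR1B1 therefore offers fewer bases for reads than a transcript of either carrier, so the order of the genes by abundance is read from values per length, and counts, CPM and ranks by count also carry the length of each gene.

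The library with the fewest counts, replicate 2 of Neg-siRNA (300 mOsm), had 34564103, and the one with the most, replicate 1 of Nfat5-1-siRNA (500 mOsm), had 46043788. CPM is the read count scaled to a common library size with TMM factors, and TPM is the count per kilobase of exon scaled to the same sum in every library. The test was edgeR's quasi-likelihood test, fitted across the 19835 genes whose counts summed to 5 or more, and a gene was called when its p-value was below 0.05 after the Benjamini-Yekutieli adjustment. Each group had 2 cell passages, so the p-values rest on the spread between them.

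The labels could be checked against the siRNA target only in part. No file used here pairs the symbol Nfat5 with an identifier, and the gene next to NQO1 on chromosome 5, where the dog RefSeq annotation places NFAT5, was taken as Nfat5. Its level was 21.8 and 23.6 CPM with Neg-siRNA at 300 mOsm, 85.9 and 78.5 CPM with Neg-siRNA at 500 mOsm, 104 and 88.1 CPM with Nfat5-1-siRNA and 72.2 and 73.5 CPM with Nfat5-2-siRNA. The log2 change was 0.22 (95% CI −0.09 to 0.53) with Nfat5-1-siRNA and −0.17 (95% CI −0.48 to 0.14) with Nfat5-2-siRNA, and neither was called by edgeR (adjusted p = 1). The mRNA of this gene was thus not called lower with either construct, and the siRNA of each library is taken from its label alone. Of 28 markers of kidney epithelium and of other cell types, 1 could be paired with a row of the table, so the epithelial identity of the cells could not be checked either.

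All 3 genes were higher in hyperosmotic medium in the control cells, SLC6A12 by more than AKR1B1 and AKR1B1 by more than SLC6A6. The fold change between group means was 510 for SLC6A12, 56.6 for AKR1B1 and 12.6 for SLC6A6. That of SLC6A12 was 774 without replicate 2 of Neg-siRNA (300 mOsm) and 380 without its replicate 1. Per length the genes started from different levels, with SLC6A12 at 0.988 and 1.92 TPM and SLC6A6 at 55.1 and 44.0 TPM at 300 mOsm.

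SLC6A6 had 11120 and 7054 reads, or 250 and 209 CPM, in replicates 1 and 2 of Neg-siRNA (300 mOsm). In Neg-siRNA (500 mOsm) it had 123519 and 97840 reads, or 3351 and 2449 CPM. The libraries at 500 mOsm were all above those at 300 mOsm, and the log2 fold change was 3.66 (SE 0.23, adjusted p = 1.62e-06 by edgeR). SLC6A12 had 115 and 178 reads (2.59 and 5.27 CPM) at 300 mOsm and 78885 and 74513 reads (2140 and 1865 CPM) at 500 mOsm. Its groups lay far apart as well, at 9.01 (SE 0.42, adjusted p = 2.24e-07 by edgeR), and the widest SE of the 3 genes. The log2 change was 9.69 in passage 15 and 8.47 in passage 17, and 8.52 to 9.60 with any single library left out. At 300 mOsm its CPM in passage 15 was 0.491 times that in passage 17. AKR1B1 had 802 and 764 reads (18.0 and 22.6 CPM) at 300 mOsm and 41125 and 47389 reads (1116 and 1186 CPM) at 500 mOsm. The log2 fold change was 5.82 (SE 0.28, adjusted p = 2.39e-07 by edgeR), again without overlap between the groups.

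All 3 members were called higher, against 11.3% of all genes tested, and the groups did not overlap for any of them, against 33% of all genes in this direction. Among the 9203 genes that averaged 10 CPM or more over the 8 libraries, the rise of SLC6A12 ranked 5, that of AKR1B1 ranked 19 and that of SLC6A6 ranked 71. Among all 19835 genes tested, where genes of few reads can have large fold changes, the ranks were 40, 306 and 1269. In bulk RNA, a change in the share of cells that express a gene and a change in RNA per cell cannot be told apart.

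**Figure D1:**
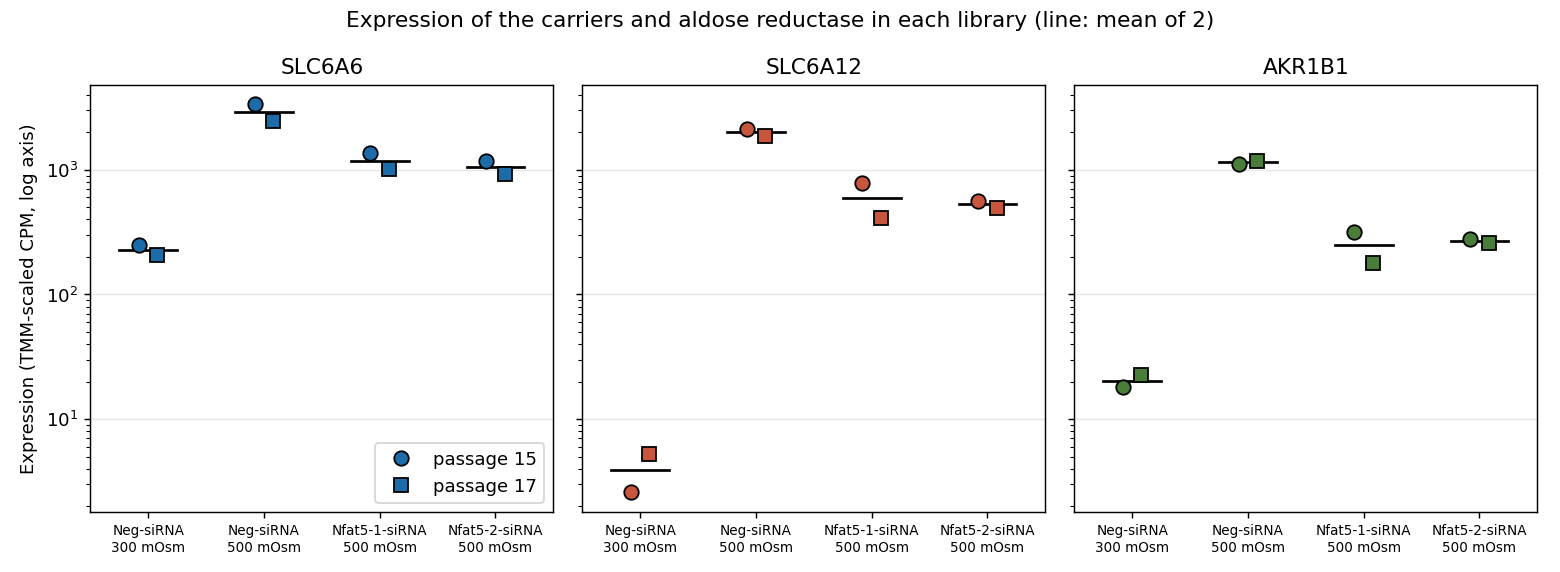
Expression of SLC6A6, SLC6A12 and AKR1B1 in each library as TMM-scaled CPM on a log axis, with circles for passage 15, squares for passage 17 and a line for the mean of the 2 libraries. Every library of Neg-siRNA (500 mOsm) lies above every Nfat5-siRNA library, and every Nfat5-siRNA library lies above Neg-siRNA (300 mOsm), with SLC6A12 rising from 2.59 and 5.27 CPM.

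The reads of the 3 genes together made up 0.0270% and 0.0231% of the counts in the libraries of Neg-siRNA (300 mOsm). They made up 0.583% and 0.500% in Neg-siRNA (500 mOsm). With Nfat5-1-siRNA the share was 0.250% and 0.167%, and with Nfat5-2-siRNA it was 0.226% and 0.181%. The libraries of the siRNA groups thus lay between the controls and overlapped each other.

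By read count, SLC6A6 ranked 656 and 818 at 300 mOsm, where 17733 and 17761 genes had a count. It ranked 14 and 22 in Neg-siRNA (500 mOsm), 38 and 64 with Nfat5-1-siRNA and 39 and 75 with Nfat5-2-siRNA. The taurine carrier was therefore among the 100 most counted genes in every hyperosmotic library. SLC6A12 moved further, from ranks 11189 and 10230 at 300 mOsm to 31 and 38 in Neg-siRNA (500 mOsm), and to 111 and 321 with Nfat5-1-siRNA and 174 and 227 with Nfat5-2-siRNA. AKR1B1 ranked 7880 and 7127 at 300 mOsm, 100 and 91 in Neg-siRNA (500 mOsm), 517 and 1173 with Nfat5-1-siRNA and 508 and 604 with Nfat5-2-siRNA. Neither SLC6A12 nor AKR1B1 kept its rank under an Nfat5-siRNA, but no library at 500 mOsm brought them back to the ranks of Neg-siRNA (300 mOsm).

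Per length, the order of the genes was different. At 300 mOsm, SLC6A6 had the highest level, with 55.1 and 44.0 TPM, AKR1B1 followed with 25.5 and 30.6 TPM, and SLC6A12 had 0.988 and 1.92 TPM. The libraries of neighbouring genes in this order did not overlap. In Neg-siRNA (500 mOsm), AKR1B1 led with 1756 and 1758 TPM, before SLC6A12 with 910 and 747 TPM and SLC6A6 with 822 and 566 TPM. The levels of the carriers overlapped here and did not differ beyond their spread, although SLC6A12 was the higher of them in each library, whereas AKR1B1 was above both in both libraries. By TPM, AKR1B1 ranked 61 and 66 in these libraries, SLC6A12 ranked 139 and 179 and SLC6A6 ranked 154 and 251.

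With Nfat5-1-siRNA the levels per length were 572 and 323 TPM for AKR1B1, 380 and 286 TPM for SLC6A6 and 381 and 201 TPM for SLC6A12. All 3 ranges overlapped. With Nfat5-2-siRNA they were 549 and 468 TPM for AKR1B1, 365 and 258 TPM for SLC6A6 and 303 and 241 TPM for SLC6A12. AKR1B1 was then above both carriers, while the ranges of the carriers overlapped. Within each library AKR1B1 remained the highest per length at 500 mOsm, with the TPM of SLC6A6 at 0.468 and 0.322 times that of AKR1B1 in Neg-siRNA (500 mOsm), 0.665 and 0.887 times with Nfat5-1-siRNA and 0.665 and 0.551 times with Nfat5-2-siRNA.

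**Figure D2:**
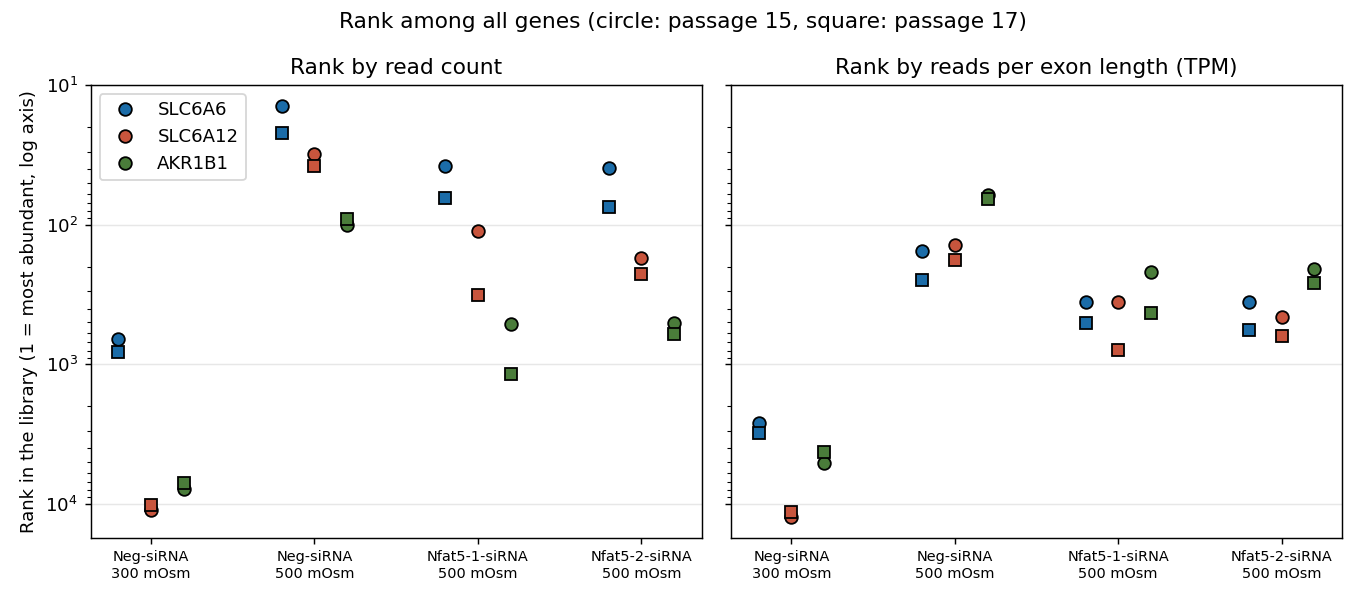
Rank of each gene among all genes in each library by read count (left) and by TPM (right), on a log axis with rank 1 at the top, with circles for passage 15 and squares for passage 17. By count SLC6A6 is the highest of the 3 in Neg-siRNA (500 mOsm), at ranks 14 and 22, and by TPM AKR1B1 is, at ranks 61 and 66.

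All 3 genes were lower with both Nfat5-siRNAs than with Neg-siRNA at the same osmolality, and of the 3 estimates that of AKR1B1 was the largest with each construct. SLC6A6 was measured at 1363 and 1011 CPM with Nfat5-1-siRNA and at 1179 and 918 CPM with Nfat5-2-siRNA, all below the 3351 and 2449 CPM of the hyperosmotic control. The change on the log2 scale was −1.29 (SE 0.21, adjusted p = 0.0099) with Nfat5-1-siRNA and −1.47 (SE 0.21, adjusted p = 0.0027) with Nfat5-2-siRNA by edgeR. Within passages 15 and 17 the change was −1.30 and −1.28 with Nfat5-1-siRNA and −1.51 and −1.42 with Nfat5-2-siRNA. Both calls were kept with the passage as a block (adjusted p = 9.48e-14 and 1.16e-16 by edgeR). The fits with a library left out did not use the passage. The call with Nfat5-1-siRNA was lost without replicate 1 of Neg-siRNA (500 mOsm), at −0.98 (adjusted p = 0.166 by edgeR), and without replicate 2 of Nfat5-1-siRNA, at −1.09 (adjusted p = 0.356). The call with Nfat5-2-siRNA was lost without replicate 1 of Neg-siRNA (500 mOsm), at −1.12 (adjusted p = 0.0672 by edgeR), and without replicate 2 of Nfat5-2-siRNA, at −1.30 (adjusted p = 0.0692).

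SLC6A12 was measured at 787 and 410 CPM with Nfat5-1-siRNA and at 565 and 494 CPM with Nfat5-2-siRNA, against 2140 and 1865 CPM in Neg-siRNA (500 mOsm). The groups did not overlap. The log2 fold changes were −1.74 (SE 0.30, adjusted p = 0.0135) and −1.92 (SE 0.30, adjusted p = 0.00472) by edgeR. Within passages 15 and 17 they were −1.44 and −2.19 with Nfat5-1-siRNA and −1.92 and −1.92 with Nfat5-2-siRNA. Both calls were kept with the passage as a block (adjusted p = 4.95e-17 and 2.83e-19 by edgeR). The fits with a library left out did not use it. The Nfat5-1-siRNA change lost its call without replicate 1 of Neg-siRNA (500 mOsm) (−1.58, adjusted p = 0.134), without its replicate 2 (−1.78, adjusted p = 0.0902) and without replicate 2 of Nfat5-1-siRNA (−1.35, adjusted p = 0.344), all by edgeR. The Nfat5-2-siRNA change lost its call without replicate 1 of Neg-siRNA (500 mOsm) (−1.71, adjusted p = 0.0678), and without replicate 1 (−2.02, adjusted p = 0.0711) or replicate 2 (−1.82, adjusted p = 0.121) of Nfat5-2-siRNA, by edgeR.

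AKR1B1 was measured at 320 and 178 CPM with Nfat5-1-siRNA and at 276 and 259 CPM with Nfat5-2-siRNA, against 1116 and 1186 CPM in the hyperosmotic control. Every siRNA library was below both control libraries. The log2 fold change was −2.21 (SE 0.23, adjusted p = 0.000532) with Nfat5-1-siRNA and −2.10 (SE 0.23, adjusted p = 0.000418) with Nfat5-2-siRNA by edgeR. AKR1B1 kept its call with any single library left out, with adjusted p-values up to 0.0160 and 0.0190 by edgeR.

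With Nfat5-1-siRNA, 4.53% of all genes tested were called lower and 32.9% had lower groups without overlap. With Nfat5-2-siRNA these shares were 7.38% and 32.1%. All 3 members were in both sets with both constructs. Among the same 9203 genes, the fall of AKR1B1 ranked 57 with Nfat5-1-siRNA and 79 with Nfat5-2-siRNA, that of SLC6A12 ranked 121 and 126, and that of SLC6A6 ranked 282 and 274. Among all genes tested the ranks were 1428 and 1114 for AKR1B1, 1900 and 1259 for SLC6A12 and 2630 and 1801 for SLC6A6. Both siRNA comparisons share the Neg-siRNA (500 mOsm) libraries and are therefore not independent of each other.

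What remained of the hyperosmotic rise was read against Neg-siRNA (300 mOsm). Under either siRNA, all 3 genes stayed several fold above their level in normal medium. SLC6A6 was 5.17-fold above it with Nfat5-1-siRNA, with a log2 difference of 2.37 (SE 0.22, adjusted p = 2.71e-05 by edgeR), and 4.57-fold above it with Nfat5-2-siRNA, with a log2 difference of 2.19 (SE 0.22, adjusted p = 4.48e-05 by edgeR). SLC6A12 was 152-fold and 135-fold higher by group means, or 231-fold and 205-fold without replicate 2 of Neg-siRNA (300 mOsm). Within passages 15 and 17 it was 304-fold and 77.9-fold higher with Nfat5-1-siRNA and 219-fold and 93.8-fold higher with Nfat5-2-siRNA. The fitted log2 fold changes of SLC6A12 were 7.27 (SE 0.39, adjusted p = 6.03e-07) and 7.09 (SE 0.39, adjusted p = 5.99e-07) by edgeR. AKR1B1 was 12.2-fold and 13.2-fold higher, with log2 fold changes of 3.61 (SE 0.25, adjusted p = 2.81e-06) and 3.72 (SE 0.25, adjusted p = 1.97e-06) by edgeR. No Nfat5-siRNA library overlapped Neg-siRNA (300 mOsm) for any of the 3 genes, which held for 34.5% of all genes in this direction with Nfat5-1-siRNA and 35.2% with Nfat5-2-siRNA. Of all genes, 13.2% and 12.7% were called higher in these comparisons.

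**Figure D3:**
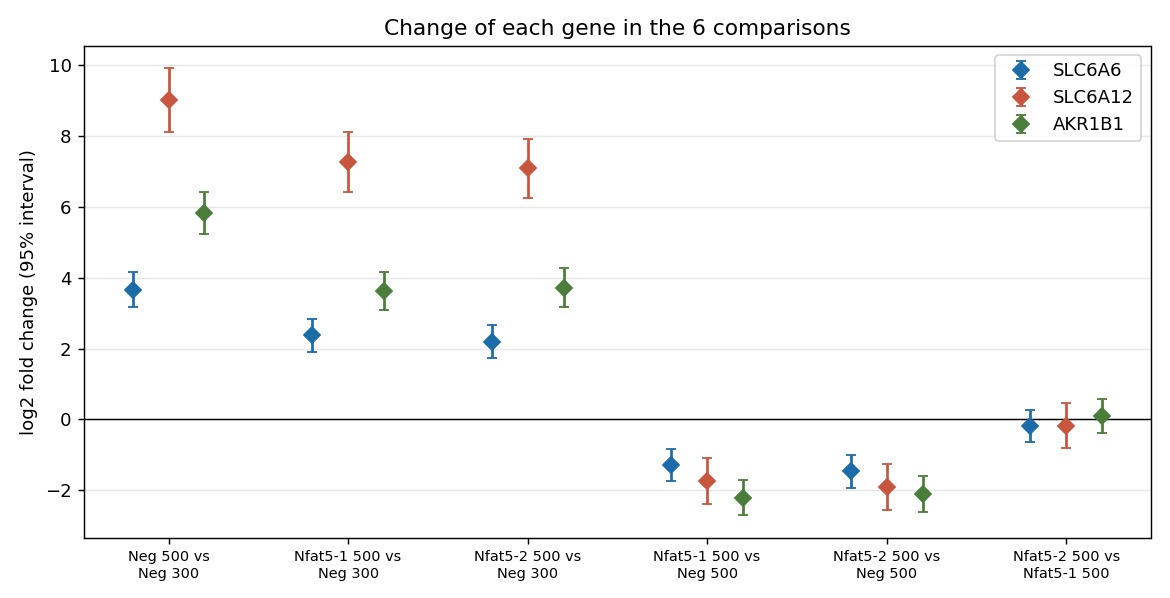
The log2 fold change of SLC6A6, SLC6A12 and AKR1B1 in each comparison, where the numbers 300 and 500 give the osmolality in mOsm. Bars are 95% intervals derived from the F statistic of edgeR's quasi-likelihood test. The intervals of the 5 comparisons with Neg-siRNA lie clear of 0, while those of Nfat5-2-siRNA against Nfat5-1-siRNA include it for all 3 genes.

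On the linear scale, the CPM left above Neg-siRNA (300 mOsm) was expressed as a share of the rise in Neg-siRNA (500 mOsm). With Nfat5-1-siRNA, 35.9% of the rise was left for SLC6A6, 29.8% for SLC6A12 and 20.2% for AKR1B1. With Nfat5-2-siRNA, 30.7%, 26.3% and 21.9% were left in the same order of genes. With both constructs SLC6A6 kept the largest share and AKR1B1 the smallest by group means.

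Within passages the shares were close for SLC6A6, at 35.9% and 35.8% in passages 15 and 17 with Nfat5-1-siRNA and at 29.9% and 31.6% with Nfat5-2-siRNA. For SLC6A12 the share was 36.7% in passage 15 and 21.8% in passage 17 with Nfat5-1-siRNA, and 26.3% in both passages with Nfat5-2-siRNA. For AKR1B1 it was 27.5% and 13.3% with Nfat5-1-siRNA and 23.5% and 20.3% with Nfat5-2-siRNA. The order of the genes by group means held in both passages with Nfat5-2-siRNA and in passage 17 with Nfat5-1-siRNA, while in passage 15 with Nfat5-1-siRNA the share of SLC6A12 was above that of SLC6A6. With 2 passages, the differences between the genes were not tested.

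**Figure D4:**
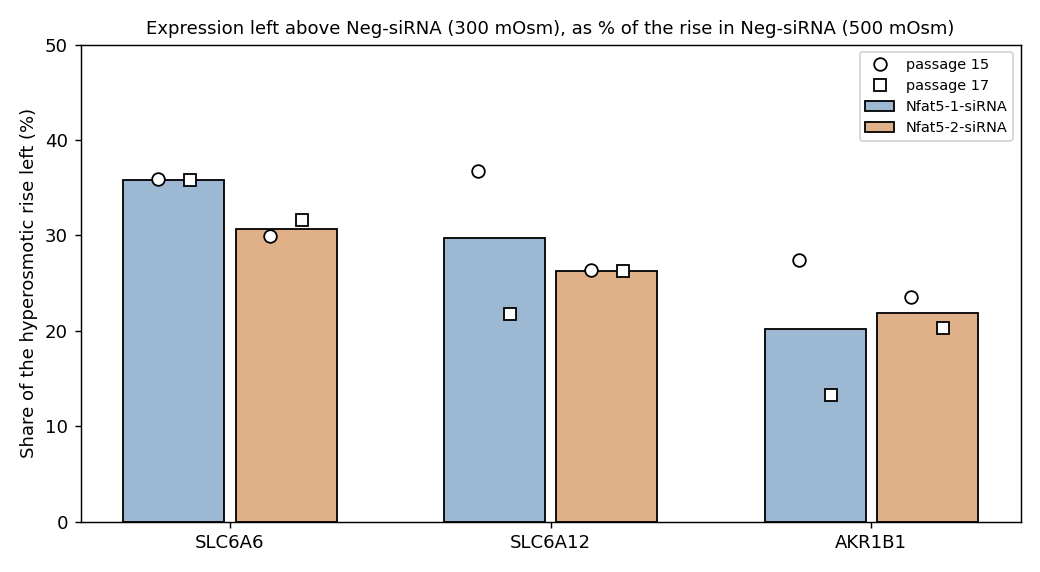
Share of the hyperosmotic rise left under each Nfat5-siRNA, in % of the linear CPM difference between the Neg-siRNA groups, with bars for group means and open symbols for the passages. Shares run from 13.3% for AKR1B1 in passage 17 with Nfat5-1-siRNA to 36.7% for SLC6A12 in passage 15 with the same siRNA.

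The log2 scale gave another order, because it measures the fall against the size of the rise in fold terms. Nfat5-1-siRNA undid 35.2% of the log2 rise of SLC6A6, 19.4% of that of SLC6A12 and 38.0% of that of AKR1B1. Nfat5-2-siRNA undid 40.1%, 21.3% and 36.1% in the same order of genes. In passages 15 and 17, Nfat5-1-siRNA undid 34.7% and 35.9% for SLC6A6, 14.9% and 25.8% for SLC6A12, and 30.3% and 47.9% for AKR1B1. The order of SLC6A6 and AKR1B1 with this construct therefore turned between passages. With Nfat5-2-siRNA the values were 40.3% and 39.9%, 19.8% and 22.6%, and 33.8% and 38.4%. SLC6A12 thus kept the largest part of its rise on the log2 scale with both siRNAs, although it did not on the linear scale.

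The constructs could not be distinguished on these genes. The log2 fold change of Nfat5-2-siRNA against Nfat5-1-siRNA was −0.18 (95% CI −0.63 to 0.27) for SLC6A6, −0.18 (95% CI −0.80 to 0.45) for SLC6A12 and 0.11 (95% CI −0.37 to 0.59) for AKR1B1, each with an adjusted p of 1 by edgeR. The groups overlapped for all 3 genes, and differences within these intervals would not have been detected. Of all genes, 0.0302% were called higher and 0.0101% lower in this comparison, 8 genes in both directions together. That count was 979 with the passage as a block, 188 with DESeq2, 337 without a filter and 0 with filterByExpr in edgeR. None of these settings called any of the 3 members. The sign turned for SLC6A6 (0.0523) and SLC6A12 (0.37) without replicate 1 of Nfat5-1-siRNA and for AKR1B1 (−0.25) without its replicate 2.

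The passages differed by gene and group. SLC6A12 was 1.92 times and AKR1B1 1.80 times as high in passage 15 as in passage 17 with Nfat5-1-siRNA, while with Nfat5-2-siRNA the ratios were 1.14 and 1.07. In Neg-siRNA they were 1.15 and 0.940 at 500 mOsm and 0.491 and 0.798 at 300 mOsm, so that SLC6A12 was the lower in passage 15 at 300 mOsm and the higher there in the other groups. SLC6A6 was higher in passage 15 in every group, with log2 ratios of 0.26 and 0.45 in Neg-siRNA at 300 and 500 mOsm, 0.43 with Nfat5-1-siRNA and 0.36 with Nfat5-2-siRNA. The biological coefficient of variation that edgeR estimated was 0.209 for SLC6A12, 0.165 for AKR1B1 and 0.152 for SLC6A6, each above the 0.132 to 0.135 of the trend at their expression. These values and the trend are from the fit without the passage. With the passage as a block the coefficients were 0.109, 0.104 and 0.0976 in the same order. The passage is confounded with the replicate number, so other differences between the libraries of a group cannot be told apart from it.

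Fixed lists held 41 genes of osmolyte transport, synthesis and release, water and urea channels and Nfat5, with these members among them. Only those whose symbol is in the study's supplementary list could be paired with a row by symbol. That list holds genes chosen for their change in these samples, so what it says on direction is not independent. The pairing by symbol found the 3 members and SLC5A3, ISYNA1 and AQP1, and left the other 35 unpaired. Of these, Nfat5 was taken by its position next to NQO1, and the rest were not analysed here under their symbols. SLC5A3, the myo-inositol carrier, had a log2 hyperosmotic change of 5.92 (SE 0.45), which rested on 14 and 6 reads at 300 mOsm. Its changes were −1.46 (SE 0.33, adjusted p = 0.0716, or 4.28e-07 with the passage as a block) with Nfat5-1-siRNA and −1.97 (SE 0.34, adjusted p = 0.00899) with Nfat5-2-siRNA, by edgeR. ISYNA1, the enzyme that makes the precursor of myo-inositol, rose to 152 and 118 CPM from 11.1 and 11.7 CPM, and fell to 24.4 and 20.5 CPM with Nfat5-1-siRNA and 25.5 and 24.0 CPM with Nfat5-2-siRNA. Its log2 changes with the siRNAs were −2.59 (SE 0.17) and −2.45 (SE 0.17), and it stayed 0.98 (SE 0.17, adjusted p = 0.00432) and 1.12 (SE 0.17, adjusted p = 0.00147) above Neg-siRNA (300 mOsm) by edgeR, a smaller estimate than that of any of the 3 members. AQP1, a water channel, had a log2 hyperosmotic change of 6.63 (SE 0.54), with −3.35 (SE 0.42) and −3.02 (SE 0.42) under the siRNAs, all called by edgeR. That rise rested on 3 and 22 reads at 300 mOsm, and was 8.75 in passage 15 and 5.84 in passage 17. PDGFRA, the fibroblast marker and the only paired marker of a cell type, had a hyperosmotic change of 0.86 (SE 0.17, adjusted p = 0.0135 by edgeR) on the log2 scale and was 1.92-fold and 2.01-fold lower with the siRNAs (adjusted p = 0.0182 and 0.00817 by edgeR), and its part in the results was not tested.

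The genes beside the members were compared in the same way. Of the 12 genes nearest to the members, 2 on each side of each, 9 were tested and 0 were called in the hyperosmotic comparison by edgeR, with 4 at an unadjusted p below 0.05, and DESeq2 also called 0 of these 9. With the passage as a block, edgeR called 2 of them, both higher. Over all genes, 11.3% were called higher without the block and 17.3% with it, so with 9 genes these counts do not set the flanking genes apart from the rest. Among the 9, the gene 162535 bases beyond AKR1B1 had 0 reads in every Neg-siRNA library, so it could not have been called. The 4 genes flanking SLC6A6 had at most 24 reads in a library, also the gene that starts 1813 bases beyond it on the opposite strand. Beside SLC6A12, the gene 6615 bases away on the same strand had 149 and 246 reads with Neg-siRNA at 300 mOsm and 142 and 201 at 500 mOsm, and the gene 9820 bases away on the other side had 10 and 39, and 44 and 103 reads, a log2 change of 1.49 (adjusted p = 0.857 by edgeR, or 0.0274 with the passage as a block). A gene 68427 bases from SLC6A12 was called higher with Nfat5-1-siRNA, by 0.74 on the log2 scale (adjusted p = 0.0309 by edgeR), and its change with Nfat5-2-siRNA was 0.53 (adjusted p = 0.155, or 0.0054 with the passage as a block). Neither of the nearest genes had a count near the 78885 and 74513 reads of SLC6A12. The nearest counted gene to AKR1B1, 114328 bases beyond it, had 701 and 522 reads at 300 mOsm and 952 and 976 at 500 mOsm, a log2 change of 0.69 (adjusted p = 0.110 by edgeR, or 0.00154 with the passage as a block). Within the span of SLC6A12 the annotation places a further gene of 314 bases on the same strand, from 42289870 to 42290183. It had 0 reads in both libraries at 300 mOsm and 38 and 50 reads in Neg-siRNA (500 mOsm). This gene is not among the 12 and was called higher in the hyperosmotic comparison (adjusted p = 0.00397 by edgeR). With Nfat5-1-siRNA and Nfat5-2-siRNA it was also called above Neg-siRNA (300 mOsm) (adjusted p = 0.0131 and 0.0183 by edgeR). Reads were counted without strand, and how many reads of this gene came from the unspliced SLC6A12 transcript was not tested.

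The closest match to any member over the 8 libraries was a single-exon gene that followed AKR1B1. This gene, ENSCAFG00000002440, was singled out after its values were seen and lies on chromosome 14 from 31644148 to 31645491 on the forward strand, with 1344 bases. It had 438 and 354 reads with Neg-siRNA at 300 mOsm, 23574 and 26971 with Neg-siRNA at 500 mOsm, 8228 and 4776 with Nfat5-1-siRNA and 6893 and 6181 with Nfat5-2-siRNA. These were 54.6% and 46.3%, 57.3% and 56.9%, 55.3% and 57.2%, and 59.4% and 56.4% of the AKR1B1 count in the same libraries. In the hyperosmotic libraries the share thus stayed between 55.3% and 59.4% while the count of AKR1B1 itself ranged from 8351 to 47389. Whether the genes share sequence, so that reads of one were assigned to the other, was not tested, and the level of AKR1B1 is uncertain to that extent. With the counts of both genes added, AKR1B1 kept all 5 calls against Neg-siRNA.

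**Figure D5:**
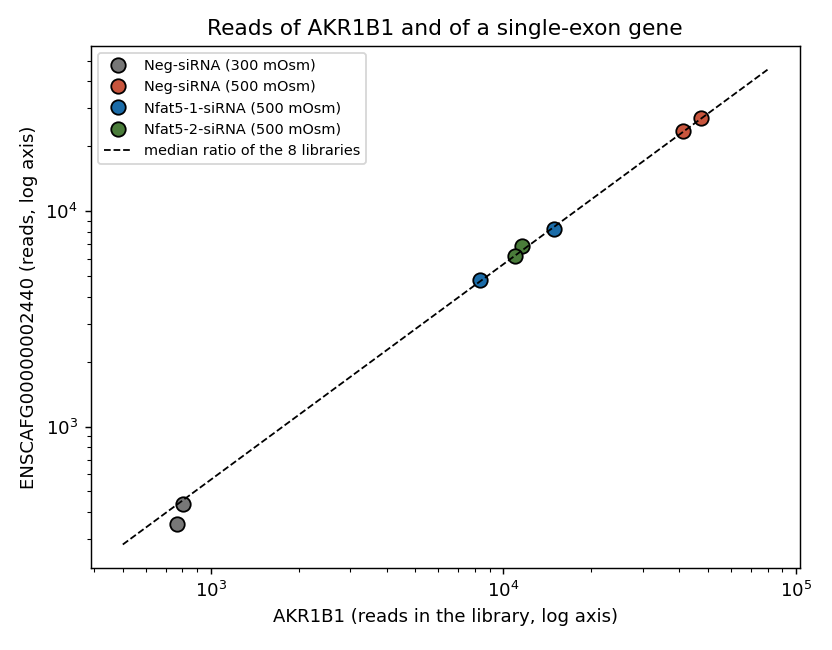
Reads of the single-exon gene ENSCAFG00000002440 (vertical) against reads of AKR1B1 (horizontal) in each of the 8 libraries, both on log axes and coloured by group. The dashed line is the median ratio, 56.7%, and the libraries lie close to it, with the largest departure at 46.3% in a library of Neg-siRNA (300 mOsm).

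Other genes were ranked by how closely their profile followed that of each member, as the root mean square difference between log2 CPM values centred over the 8 libraries, among 8962 genes that averaged at least 10 CPM in Neg-siRNA (500 mOsm), the group in which the members were highest. Of the 5 closest to SLC6A6, 2 had a symbol, B3GLCT (0.177), a glucosyltransferase of the endoplasmic reticulum, and PPM1H (0.247), a protein phosphatase. B3GLCT was at 3.85 and 3.82 CPM at 300 mOsm, 47.9 and 39.0 CPM with Neg-siRNA at 500 mOsm, 24.0 and 15.7 CPM with Nfat5-1-siRNA and 24.0 and 18.5 CPM with Nfat5-2-siRNA. It had the pattern of SLC6A6 at a far lower count. For SLC6A12 the closest were the chemokine CCL24 (0.291), PRSS35 (0.398), a gene without a symbol (0.400), the pepsinogen PGA (0.642) and the potassium channel KCNJ15 (0.657). At 300 mOsm PRSS35 was at 0 CPM in both libraries, PGA at 0 and 0.0592 CPM and KCNJ15 at 0.0900 and 0.0592 CPM, so their values there, and with them the difference from SLC6A12, depend on the prior count of 2. CCL24 was at 0.337 and 0.740 CPM at 300 mOsm, 387 and 390 CPM with Neg-siRNA at 500 mOsm, 105 and 45.8 CPM with Nfat5-1-siRNA and 113 and 67.5 CPM with Nfat5-2-siRNA. For AKR1B1 the closest with a symbol were NPTX2 (0.293), a neuronal pentraxin, and NR1H4 (0.308), the nuclear receptor for bile acids. NPTX2 was at 2.50 and 3.32 CPM at 300 mOsm, 147 and 170 CPM with Neg-siRNA at 500 mOsm, 55.9 and 42.5 CPM with Nfat5-1-siRNA and 52.6 and 55.5 CPM with Nfat5-2-siRNA.

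The same measure was taken between the members. The difference was 0.827 between SLC6A6 and AKR1B1, 1.51 between SLC6A12 and AKR1B1 and 2.24 between the carriers, which were the least alike pair of the 3, with Pearson's r of 0.987, 0.974 and 0.964 over the 8 libraries. The libraries fall into 4 groups and share their controls, so r is a description only. In read counts, which carry the longer exons of SLC6A6, this gene exceeded SLC6A12 by 96.7 and 39.6 times at 300 mOsm, 1.57 and 1.31 times in Neg-siRNA (500 mOsm), 1.73 and 2.46 times with Nfat5-1-siRNA and 2.08 and 1.86 times with Nfat5-2-siRNA. The ratio of SLC6A12 to AKR1B1 reads was steadier at 500 mOsm, at 1.92 and 1.57 in Neg-siRNA (500 mOsm), 2.46 and 2.31 with Nfat5-1-siRNA and 2.05 and 1.91 with Nfat5-2-siRNA, against 0.143 and 0.233 at 300 mOsm.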

How the data were processed

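RNA of MDCK I cells was sequenced in 8 libraries. The authors mapped paired-end reads with HISAT2 2.0.5 to CanFam 3.1 and deposited read counts per gene from featureCounts 1.5.1 with the Ensembl 92 annotation, counted without strand and not normalized; the versions are those of the file header and the submitters' processing notes. The file header shows no option for counting read pairs as fragments, so mates may have been counted separately. Exon lengths and coordinates are the deposited values of that table (0 other value columns). From these counts, genes whose counts summed to 5 or more were tested in a single fit of all 8 libraries with edgeR 4.0.16 in R 4.3.3 (TMM, quasi-likelihood test, two-sided, Benjamini-Yekutieli adjustment, threshold 0.05). The paper's methods name DESeq2, which was used as an alternative (1.42.0). Profiles were compared as log2 CPM (prior count 2) with Python 3.11.15. The depth was 34564103 to 46043788 counts per library, and 2 libraries per group limit the precision.

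The text names the 3 members, the siRNA targets, members of fixed lists, the 2 nearest genes on each side and the 5 genes with the most similar profile in each case. Members, lists and tests were chosen with earlier results of these data known. The other alternatives were DESeq2's size factors, other filters, the Benjamini-Hochberg adjustment, the passage as a block, the 4 libraries compared alone and each library left out, and, chosen after seeing the data, AKR1B1 summed with the gene that follows it. The pairing comes from the passages in the labels, 15 for replicate 1 and 17 for replicate 2, and the common dispersion was 0.0320 without and 0.0168 with this block. Promoter and protein sequences, and Slc22a6, were not analysed here.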

Additional observations from a re-analysis of the deposited data

How the results depend on the processing

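The 15 changes of the 3 genes outside the comparison of the siRNAs had 230 alternative values. All 230 kept their direction and 220 kept their call; the 10 that lost it each left out 1 library and concerned the falls of the carriers. With a library left out, the log2 fold change ranged from −1.52 to −0.98 for SLC6A6 and from −2.29 to −1.35 for SLC6A12 with Nfat5-1-siRNA, and from −1.66 to −1.12 and from −2.02 to −1.71 with Nfat5-2-siRNA. The hyperosmotic change of SLC6A12 ranged from 8.52 to 9.60. The difference between the siRNAs ranged from −0.38 to 0.0523 for SLC6A6, from −0.57 to 0.37 for SLC6A12 and from −0.25 to 0.59 for AKR1B1, with reversals at 0.0523, 0.37 and −0.25. The cause was not tested. A left-out library leaves 1 in its group, assumed to vary like the others, and these fits did not use the passage.

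The counts of all genes called moved more. The 2246 genes higher with hyperosmolality became 3441 with the replicate block, where no call of the 3 genes changed, and 3709 with the Benjamini-Hochberg adjustment. The 898 genes lower with Nfat5-1-siRNA became 1634 without a filter, 2358 with the block and 2226 with Benjamini-Hochberg, and the 1464 with Nfat5-2-siRNA became 2200, 3044 and 3043, or 833 with the 4 libraries alone. Of the genes above Neg-siRNA (300 mOsm), 2618 and 2518 became 4081 and 4104 with Benjamini-Hochberg. The 8 genes that differed between the siRNAs became 34 with DESeq2's size factors, 337 without a filter, 188 with DESeq2, 979 with the block, 186 with Benjamini-Hochberg, and 0 with filterByExpr or the 4 libraries alone in edgeR, where 2737 and 2702 had an unadjusted p below 0.05.

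With a library left out, the genes higher with hyperosmolality numbered 1393 to 2262, with 1427 and 1431 without replicate 1 or 2 of Neg-siRNA (300 mOsm) and 1393 without replicate 1 of Neg-siRNA (500 mOsm). Those lower with Nfat5-1-siRNA numbered 92 to 912, with 374 and 266 without replicate 1 or 2 of Neg-siRNA (500 mOsm) and 348 and 92 without replicate 1 or 2 of Nfat5-1-siRNA. Those lower with Nfat5-2-siRNA numbered 549 to 1304, with 582 and 549 without replicate 1 or 2 of Neg-siRNA (500 mOsm) and 751 and 658 without replicate 1 or 2 of Nfat5-2-siRNA. Those above Neg-siRNA (300 mOsm) numbered 1456 to 2617 with Nfat5-1-siRNA, with 1583 without replicate 2 of Neg-siRNA (300 mOsm) and 1592 and 1456 without replicate 1 or 2 of Nfat5-1-siRNA, and 1538 to 2593 with Nfat5-2-siRNA, with 1538 without replicate 2 of Neg-siRNA (300 mOsm). Those that differed between the siRNAs numbered 0 to 38. They were 38 and 16 without replicate 1 or 2 of Neg-siRNA (300 mOsm), 0 without either replicate of Nfat5-1-siRNA, where 1636 and 1983 had an unadjusted p below 0.05 in edgeR, and 1 and 3 without replicate 1 or 2 of Nfat5-2-siRNA.

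The share of the rise left for SLC6A6 was 36.4% and 31.9% for the siRNAs in turn with DESeq2's size factors and 41.8% and 39.3% with the plain library total, and 29.3% to 43.1% and 25.8% to 36.9% with a library left out. With Nfat5-1-siRNA and a library left out it was 20.3% to 39.2% for SLC6A12 and 13.9% to 26.5% for AKR1B1. With Nfat5-2-siRNA it was 27.2% and 32.5% for SLC6A12 under these scalings, 24.5% to 28.3% with a library left out, and for AKR1B1 27.2% with the plain total and 21.1% to 22.6% with a library left out. The mean rank in Neg-siRNA (500 mOsm) changed by TPM from 18 to 202.5 for SLC6A6, from 34.5 to 159 for SLC6A12 and from 95.5 to 63.5 for AKR1B1, and without mitochondrial genes to 28.5 for SLC6A12 and 87 for AKR1B1.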
